A study of Mus musculus with 19 samples.

Results

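The enzymes that build cholesterol and long-chain fatty acids, with the proteins that control their transcription, were followed in mouse kidney after obstruction and after zalfermin. The set was a fixed list of 35 genes, matched by symbol among the 55536 genes of the count matrix. Measured expression played no part in applying the list, but its genes were chosen with earlier results of these data known. The set held 17 genes of sterol synthesis, 12 of fatty acid synthesis, elongation and desaturation, 5 of the control of the SREBP transcription factors, and the sterol transfer protein gene Stard4. All 35 had enough reads to be tested.

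RNA sequencing of whole kidney gave 19 libraries in 3 groups. The vehicle group (n = 7) and the zalfermin group (n = 8) were obstructed kidneys, described as UUO in the series design, an abbreviation commonly used for unilateral ureteral obstruction. The third group (n = 4) was of healthy kidneys. Zalfermin, per the series title, is an FGF21 analogue with a long action; FGF21 is a hormone that acts on lipid and sugar metabolism. The sample labels name the drug only by the code 0194-0499, write MASH as the condition of all obstructed kidneys, and call the healthy kidneys untreated where the design calls them vehicle. What the obstructed groups share is therefore everything that sets them apart from the healthy group, the surgery included. The sources used here give no strain, genotype, sex, age, dose or time after surgery. The labels do not say that each library came from a separate animal, so the p-values measure the spread between these libraries.

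In the mevalonate pathway, acetyl-CoA units are joined and reduced to isoprenoid units, which are condensed to squalene, closed into lanosterol and trimmed to cholesterol. Fatty acid synthesis starts from the same acetyl-CoA, which is carboxylated to malonyl-CoA, joined into palmitate, and then lengthened or desaturated. The SREBP factors drive both branches: SREBP-2 (Srebf2) mainly the sterol genes and SREBP-1 (Srebf1) mainly the fatty acid genes. When sterols are plentiful, the INSIG proteins hold SCAP and its bound SREBP in the endoplasmic reticulum, so that the genes are transcribed less. In the kidney, cholesterol and fatty acids supply the membranes of a densely folded tubular epithelium, whose proximal part also burns fatty acids for energy.

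Libraries held 12209122 to 14844103 counts, and 16026 genes passed the count filter. Levels are given as CPM, counts brought to a common library size with TMM factors. Vehicle replicate 6 stood apart from the rest of its group, with 19788 genes detected and 1.10% of counts from mitochondrially encoded genes, and it was the highest vehicle library for 21 of the 35 genes. Where the counts of called genes in the sterol and fatty acid branches change without it, both are given, for obstruction and for zalfermin against healthy. The kidney markers matched the label: the 10 proximal tubule markers summed to 12780 to 14910 CPM per healthy library, 3022 to 4539 with vehicle and 3228 to 5499 with zalfermin. With obstruction these 10 markers were all called lower and the 10 macrophage and 9 fibroblast markers all higher. In bulk tissue, fewer cells of a type and less RNA per cell cannot be told apart. The part of this change in cell content in the results below was not tested.

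With obstruction, 15 of 17 sterol genes and 7 of 12 fatty acid genes fell. Of the 35 genes, 27 (77.1%) were called lower in vehicle than in healthy kidneys and 0 higher, at an adjusted p under 0.05 in edgeR's quasi-likelihood test, the source of all adjusted p-values here (DESeq2 and voom called 28 lower and 0 higher). Over all tested genes, edgeR called 28.6% lower and 36.2% higher. Without vehicle replicate 6, Pmvk, Acaca, Fasn and Srebf1 were called lower as well. At unadjusted p under 0.05 the set held 28 genes (80%), against 67.8% of all tested genes in either direction. The groups did not overlap for 19 of the 35 genes, each lower in all vehicle libraries than in any healthy library, against 19.5% of all tested genes lower in this way. The median log2 fold change was -0.79 over the set and 0.09 over all tested genes.

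**Figure D1:**
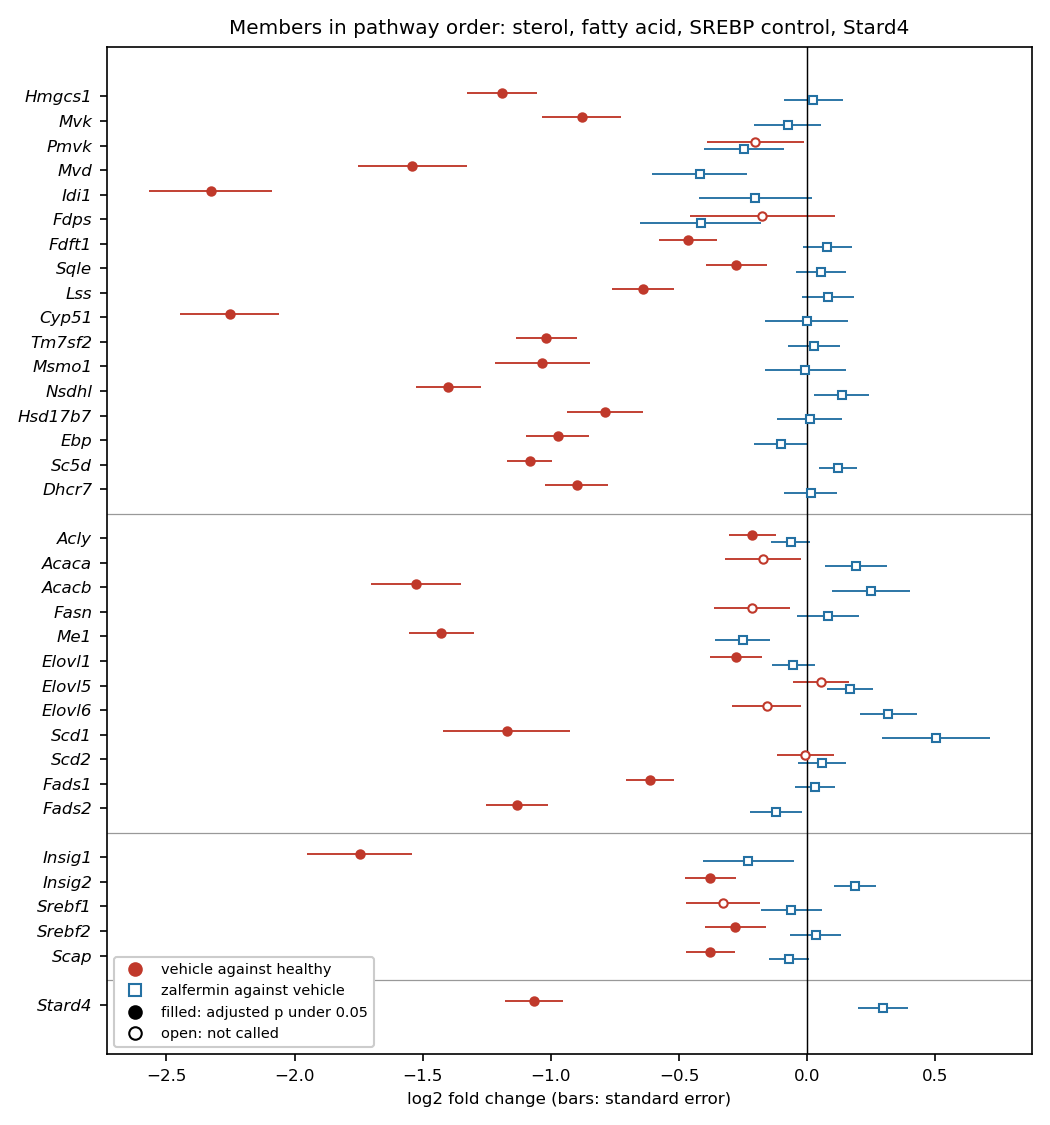
Log2 fold change (x axis, bars: standard error) of the 35 genes in pathway order, with horizontal lines between sterol genes, fatty acid genes, SREBP control genes and Stard4. Circles compare 7 vehicle with 4 healthy libraries and squares 8 zalfermin with 7 vehicle libraries; filled symbols passed an adjusted p of 0.05. Idi1 and Cyp51 lie farthest to the left, at -2.33 and -2.25, and all squares are open.

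Within the sterol branch, 15 of 17 genes fell with obstruction (88.2%, against 28.6% of all tested genes). The median log2 fold change was -0.97, and the fold change was negative for all 17. The 2 genes not called were Pmvk and Fdps. Without vehicle replicate 6 the count was 16, as Pmvk was then called at -0.45 (adjusted p = 0.00558, which ranged from 0.00558 to 0.795 over the alternative settings).

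Hmgcs1, the synthase that makes HMG-CoA at the entry of the pathway, had the highest level of the branch. Its healthy libraries held 882, 836, 849 and 966 CPM. The vehicle libraries held 311 to 545 CPM with a median of 374, so the groups were far apart, and its log2 fold change was -1.19 ± 0.14 (SE, adjusted p = 9.73e-08).

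Mvd, the decarboxylase that yields isopentenyl diphosphate, stood at 72.7, 96.1, 72.9 and 116 CPM in the healthy libraries. In the vehicle libraries it ranged from 18.7 to 58.2 with a median of 25.9. The top of that range is vehicle replicate 6, which still lay below the lowest healthy library. The change was -1.54 ± 0.21 on the log2 scale (adjusted p = 1.32e-06).

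Idi1, the isomerase that makes the second isoprenoid building block, showed the largest fall of the set. It went from 27.6, 30.0, 21.6 and 26.3 CPM in the healthy libraries to between 3.73 and 7.89 in the vehicle libraries, with a median of 4.82. The highest vehicle library was well under the lowest healthy one, and the fall was 5.02-fold (log2 -2.33 ± 0.24, adjusted p = 1.73e-08). Of the 50-base stretches of its exons, 25.3% also occur in other annotated genes, most of them in Gm13502, so part of its reads may have been assigned elsewhere.

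Of the remaining mevalonate genes, the kinase gene Mvk fell by 0.88 on the log2 scale, from 23.7 ± 6.24 to 12.9 ± 2.67 CPM (SD, n = 4 and 7; adjusted p = 3.04e-05), with overlapping libraries. Pmvk, the next kinase, had 19.5 ± 4.71 CPM in healthy and 17.01 ± 5.90 in vehicle kidneys (adjusted p = 0.356). Fdps, which makes farnesyl diphosphate, was close to the lower limit of measurement at 3.50 ± 1.47 and 3.11 ± 0.945 CPM (adjusted p = 0.606). Fdps shares exons on the same strand with Gm43738, and 26.2% of its 50-base stretches recur in other genes, so its level is uncertain.

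After the mevalonate steps, all 11 genes from squalene synthase to the last reductase were called lower. Cyp51, the lanosterol demethylase, had the largest fall of these 11. Its healthy libraries lay at 484, 483, 505 and 498.5 CPM, and its vehicle libraries between 71.4 and 134 with a median of 106. No vehicle library came near the healthy range, and the fall was 4.77-fold (log2 -2.25 ± 0.19, adjusted p = 8.11e-10).

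Nsdhl, a dehydrogenase in the removal of the methyl groups of lanosterol, held 104, 99.6, 97.1 and 80.5 CPM in the healthy libraries. Its vehicle libraries held 28.75 to 41.3 with a median of 36.8, again without overlap. The fall was 2.64-fold (log2 -1.40 ± 0.13, adjusted p = 1.95e-09).

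Between these extremes, the desaturase gene Sc5d (-1.08), the methyl sterol oxidase gene Msmo1 (-1.03), the reductase gene Tm7sf2 (-1.02) and the isomerase gene Ebp (-0.97) were each lowered about as much as the branch median on the log2 scale. Dhcr7, whose product makes cholesterol in the last step, fell by 0.90 and the ketosteroid reductase gene Hsd17b7 by 0.79. Lss, which closes squalene epoxide to lanosterol, fell by 0.64. Of these 11 genes, the first after farnesyl diphosphate had the smallest fold changes: the squalene synthase gene Fdft1 fell by 0.46 and the squalene epoxidase gene Sqle by 0.28. Sqle was only just called (adjusted p = 0.0444) and kept its call in 16 of 27 alternative settings, where the adjusted p ranged from 0.00560 to 0.145. Fdft1 overlaps exons of Ctsb on the other strand, a gene that rose by 0.38 with obstruction, and the strand setting of the counting was not stated. Sqle stood at 157 ± 20.6 CPM in healthy and 130.0 ± 14.95 in vehicle kidneys (SD, n = 4 and 7).

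**Figure D2:**
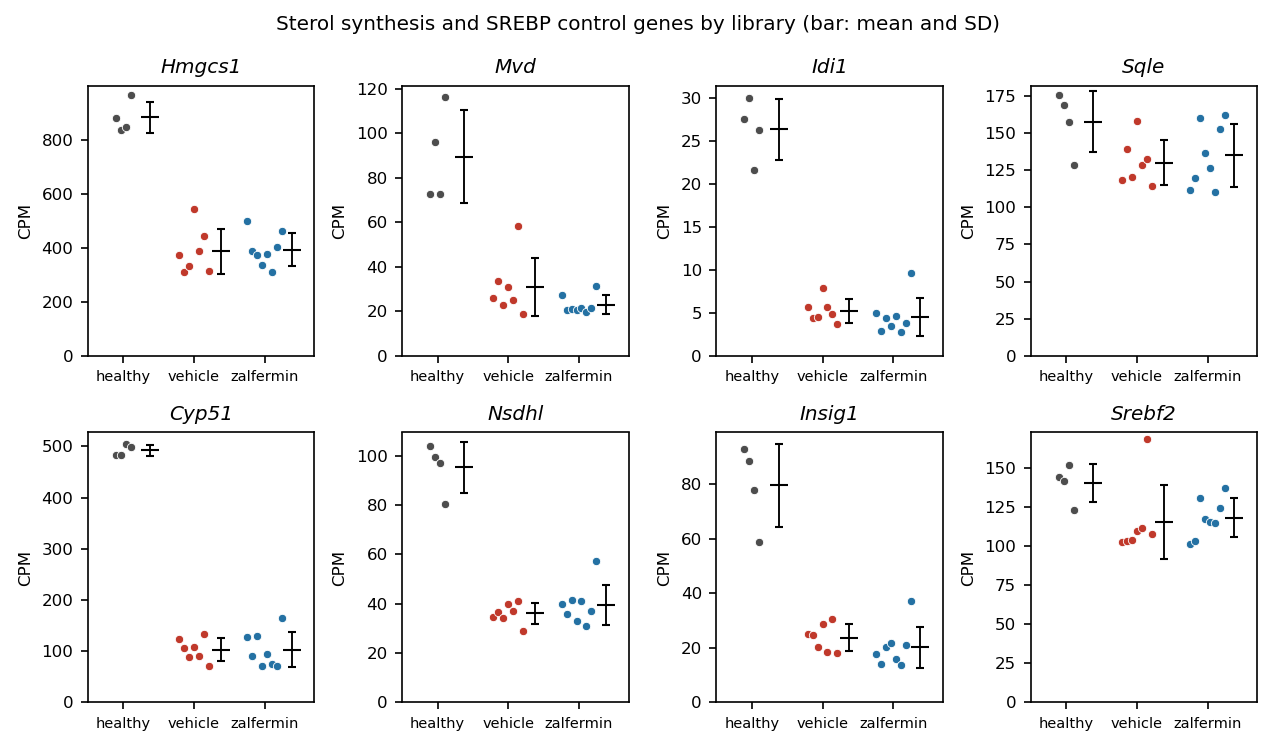
CPM (y axis, from 0) of 6 sterol synthesis genes, Insig1 and Srebf2 in each library of the 3 groups (4 healthy, 7 vehicle, 8 zalfermin), with the group mean and SD beside the points. Cyp51 and Idi1 show no overlap between healthy and obstructed libraries, while Sqle and Srebf2 do.

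Because the sterol genes moved together, their promoters were read for the sequences known to bind SREBP and its usual partner NF-Y. A RefSeq promoter (GRCm38.p6, 250 bases before to 50 after the start) was found for 28 of the 35 genes. The promoters were searched on both strands for TCACNCCAC, the core of the classical sterol regulatory element, where N is any base, and for CCAAT, the NF-Y box. CCAAT was present for 14 of 14 sterol genes with a promoter, 6 of 9 fatty acid genes and 4 of 5 SREBP control genes, against 41.1% of all 27025 RefSeq genes with a promoter. These 27025 genes were not limited to those tested here. Counted by promoter, it was in 14 of 17 sterol promoters (82.4%) and 6 of 11 fatty acid promoters (54.5%), against 37.4% of all promoters. TCACNCCAC was found in the Hmgcs1 promoter alone among these genes, against 1.44% of all RefSeq genes. A match describes these letters in this window and does not show that a factor binds.

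The stretches below, all upstream of the RefSeq start and written 5′ to 3′ on the strand of the gene, are those of Hmgcs1, of the 4 sterol genes that fell the most, of Insig1, and of 3 fatty acid genes for comparison. Capitals mark the element, with CCAAT read as ATTGG where it lies on the other strand.
Hmgcs1, sterol element, chr13:119690202-119690234 (+): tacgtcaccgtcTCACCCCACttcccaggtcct
Hmgcs1, NF-Y box, chr13:119690163-119690191 (+): cgccgtcccgccATTGGcaggcttgttct
Idi1, NF-Y box, chr13:8885549-8885577 (+): tgcctccagctgATTGGcgagcccgggca
Cyp51, NF-Y box, chr5:4104710-4104738 (-): cgctgtccgccaCCAATctggtcctgaga
Mvd, NF-Y box, chr8:122443466-122443494 (-): ggcctgtcgcctATTGGacagcacgggaa
Nsdhl, NF-Y box, chrX:72918400-72918428 (+): agcccgcttcccATTGGtttgggaacgaa
Insig1, NF-Y box, chr5:28071184-28071212 (+): cgccctcctcccATTGGctccggcggcct
Fasn, NF-Y box, chr11:120824621-120824649 (-): ccgcgcgccgccATTGGgccaccgagaac
Acacb, NF-Y box, chr5:114165419-114165447 (+): gtacaagggaccCCAATagccttgcccca
Me1, NF-Y box, chr9:86687469-86687497 (-): gcctcacatggtATTGGtattttgcacat

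The stretches of Hmgcs1, Mvd, Nsdhl, Insig1 and Fasn lie before the GENCODE gene models (GRCm38), for example those of Hmgcs1 (chr13:119690379-119708260), Mvd (chr8:122433601-122443422) and Insig1 (chr5:28071363-28078662). Those of Idi1 (chr13:8885501-8892451), Cyp51 (chr5:4081145-4104746), Acacb (chr5:114146535-114250761) and Me1 (chr9:86581371-86695953) lie within the models, which start farther upstream. In the Hmgcs1 promoter the sterol element begins 137 bases before the start and the NF-Y box shown begins 176 bases before it. The fatty acid genes with a CCAAT box included Fasn, which was not called with obstruction, and Acacb and Me1, which fell.

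The fatty acid branch was split. With obstruction 7 of 12 genes fell (58.3%, against 28.6% of all tested genes), with a median log2 fold change of -0.25. The other 5 (Acaca, Fasn, Elovl5, Elovl6 and Scd2) were not called. Of the 12, Acacb, Me1, Fads1 and Fads2 had vehicle libraries that all lay below the healthy ones (33.3%, against 19.5% of all tested genes). The count of fallen genes was 5 with upper-quartile scaling, with a fit of the 2 groups alone, and without healthy replicate 2 or 4. Without vehicle replicate 6 it was 9 and the median -0.41, as Fasn (-0.40, adjusted p = 0.00235) and Acaca (-0.31, adjusted p = 0.0416) were then called too. Over the alternative settings the adjusted p ranged from 0.00235 to 0.345 for Fasn and from 0.0416 to 0.533 for Acaca.

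Acacb, the acetyl-CoA carboxylase of the mitochondrial surface whose malonyl-CoA restrains fatty acid oxidation, held 59.5, 51.8, 55.4 and 44.7 CPM in the healthy libraries. Its vehicle libraries held 13.5 to 30.1 with a median of 16.3, and the groups were separate. The fall was 2.88-fold (log2 -1.53 ± 0.18, adjusted p = 9.85e-08). Acaca, the cytosolic carboxylase that feeds fatty acid synthesis, was at 22.9 ± 1.35 CPM in healthy and 20.3 ± 3.99 in vehicle kidneys (SD, n = 4 and 7; adjusted p = 0.317). For Acaca, 30.4% of the 50-base stretches recur elsewhere, mostly in Gm5182.

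Me1, the malic enzyme that supplies NADPH for lipid synthesis, held 504, 601, 567.9 and 738 CPM in the healthy libraries. It held 184 to 289 CPM with a median of 203 in the vehicle libraries, with no overlap. The fall was 2.69-fold (log2 -1.43 ± 0.13, adjusted p = 1.74e-09). Of its 50-base stretches 28.3% recur in other genes, mostly in Gm7049.

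Fasn, the synthase that makes palmitate, ran at 150, 147, 141 and 135 CPM in healthy libraries. In vehicle libraries it ranged from 95.9 to 189 with a median of 115. Every vehicle library but replicate 6 lay below the healthy range, and with all libraries the log2 fold change was -0.22 ± 0.15 (adjusted p = 0.203). Acly, which makes cytosolic acetyl-CoA from citrate, fell by 0.21 on the log2 scale (adjusted p = 0.0469). That call held in 10 of 27 alternative settings, with adjusted p from 0.000119 to 0.128.

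Among the desaturases, Scd1, which makes oleate and palmitoleate, was the most uneven in healthy kidneys, at 408, 406, 604 and 197 CPM. Its vehicle libraries held 134 to 229 with a median of 184, so healthy replicate 4 lay inside the vehicle range. The log2 fold change was -1.17 ± 0.25 (adjusted p = 0.000260). Scd2, its close relative, was at 175 ± 39.7 CPM in healthy and 174 ± 15.5 in vehicle kidneys (SD, n = 4 and 7), a log2 fold change of -0.01 ± 0.11.

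Fads2, the desaturase that starts the synthesis of polyunsaturated fatty acids, held 279, 299, 301 and 228 CPM in the healthy libraries. Its vehicle libraries held 107 to 181 with a median of 115, all below the healthy ones (log2 -1.13 ± 0.12, adjusted p = 2.35e-08). Fads1, the next desaturase of that route, fell by 0.61 on the log2 scale (adjusted p = 5.37e-06).

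The elongases of the set moved little. Of those outside it, Elovl2 fell by 0.51 and Elovl7 by 0.48, while Elovl4, at very low levels, had a value of 0.01. Elovl1, which extends very long saturated chains, fell by 0.28 (adjusted p = 0.0212), a call that held in 23 of 27 settings with adjusted p from 2.49e-05 to 0.0720. Elovl1 shares exonic positions on the other strand with Cdc20, which rose by 2.81, from 2.04 to 14.4 CPM. The overlap is small, as 0.139% of the 50-base stretches of Elovl1 occur in Cdc20. Elovl6, which turns palmitate into stearate, had a log2 fold change of -0.16 ± 0.13, and Elovl5, which acts on polyunsaturated chains, one of 0.05 ± 0.11, the only positive value of the set.

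**Figure D3:**
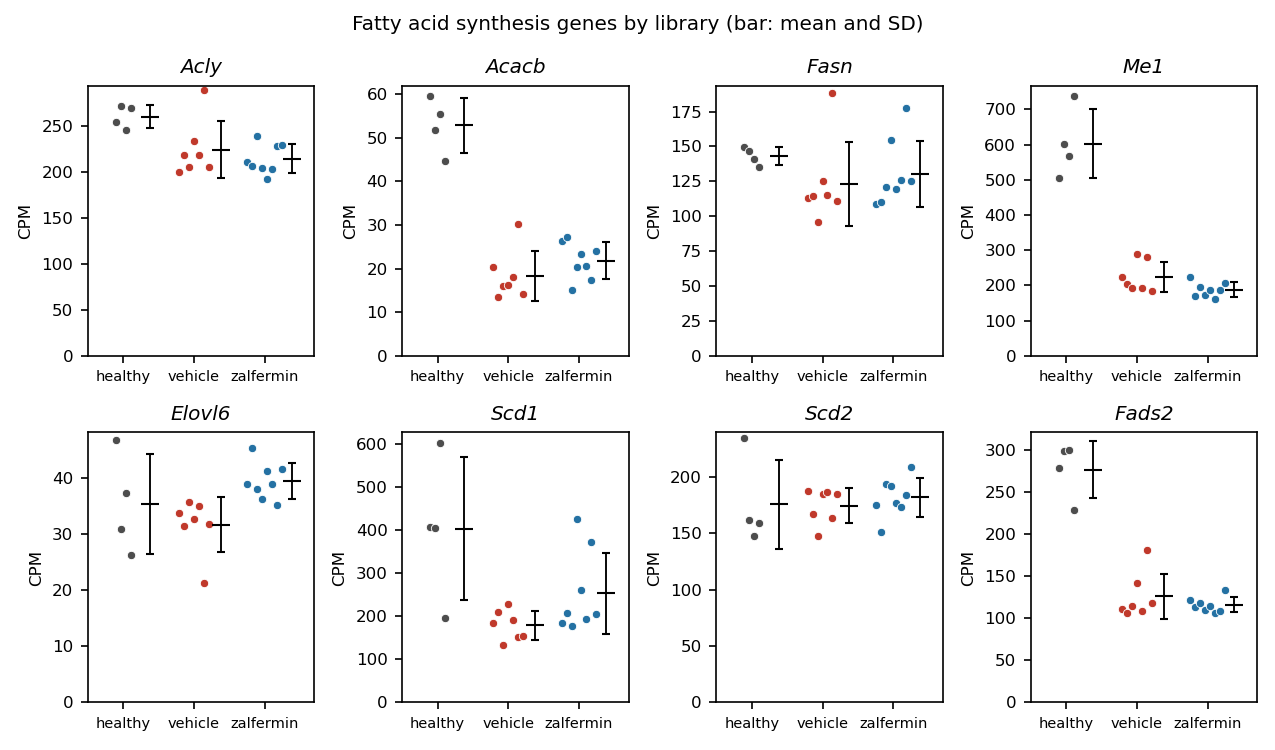
CPM (y axis, from 0) of 8 fatty acid synthesis genes in each library of the 3 groups (4 healthy, 7 vehicle, 8 zalfermin), with the group mean and SD beside the points. Acacb, Me1 and Fads2 are lower in all obstructed libraries than in any healthy one, Scd2 overlaps between all groups, and Scd1 has zalfermin libraries at 426 and 372 CPM.

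Of the 5 genes that control SREBP, 4 fell with obstruction (80%, against 28.6% of all tested genes). For 2 of the 5 the groups did not overlap (40%, against 19.5% of all tested genes). Without vehicle replicate 6 the fifth gene, Srebf1, was called lower too (log2 -0.505, adjusted p = 0.000312). Insig1, itself a target of SREBP whose product retains SCAP, held 93.0, 88.6, 77.8 and 58.7 CPM in the healthy libraries and 18.1 to 30.4 with a median of 24.7 in the vehicle libraries. These ranges were separate, and the fall was 3.35-fold (log2 -1.75 ± 0.21, adjusted p = 1.24e-07).

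Insig2, which has the same role but is not driven by SREBP in the same way, changed less. It held 64.8, 67.6, 66.8 and 66.0 CPM in healthy and 34.7 to 59.6 with a median of 50.7 in vehicle libraries, a log2 fold change of -0.38 ± 0.10 (adjusted p = 0.00205) without overlap. Scap, the escort protein of SREBP, held 119, 138, 140.5 and 143 CPM in healthy and 92.4 to 140.04 with a median of 98.6 in vehicle libraries. All vehicle libraries but replicate 6 lay below the healthy ones (log2 -0.38 ± 0.10, adjusted p = 0.00139).

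Srebf2 held 144, 142, 152 and 123 CPM in healthy libraries, and 103 to 169 with a median of 108 in vehicle libraries. Again replicate 6 alone exceeded the lowest healthy value. Its log2 fold change was -0.28 ± 0.12 (adjusted p = 0.0432), a call kept in 13 of 27 settings, with adjusted p from 2.40e-05 to 0.123. Srebf1 held 108, 99.7, 86.9 and 69.25 CPM in healthy libraries, and 61.1 to 109 with a median of 65.4 in vehicle libraries, with overlap. It was not called (log2 -0.33 ± 0.14, adjusted p = 0.0504), but was called in 7 of 27 settings, where adjusted p ran from 0.000312 to 0.197. These log2 fold changes were small beside the -1.75 of Insig1.

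Stard4, which carries cholesterol between membranes and is a sterol-regulated gene, held 154, 132, 143 and 119 CPM in the healthy libraries. In the vehicle libraries it held 52.1 to 78.2 with a median of 64.9, all below the healthy ones, a 2.09-fold fall (log2 -1.07 ± 0.11, adjusted p = 2.70e-08).

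To compare the branches library by library, the log2 CPM of each gene was set against its healthy mean and averaged over the genes of a branch. This mean gives the strongly changed genes more weight than the median does. The sterol branch stood at -1.01 ± 0.19 in vehicle and -1.07 ± 0.19 in zalfermin libraries, the fatty acid branch at -0.57 ± 0.12 and -0.48 ± 0.07 (SD, n = 7 and 8). The sterol branch lay below the fatty acid branch in 7 of 7 vehicle and 8 of 8 zalfermin libraries, and in 2 of 4 healthy ones. The sterol minus the fatty acid level was -0.44 ± 0.10 in vehicle libraries, from -0.62 to -0.32 in single libraries. In the zalfermin libraries it was -0.59 ± 0.18, from -0.77 to -0.24. The gene lists were chosen with earlier results known, so these levels are a description and carry no test.

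**Figure D4:**
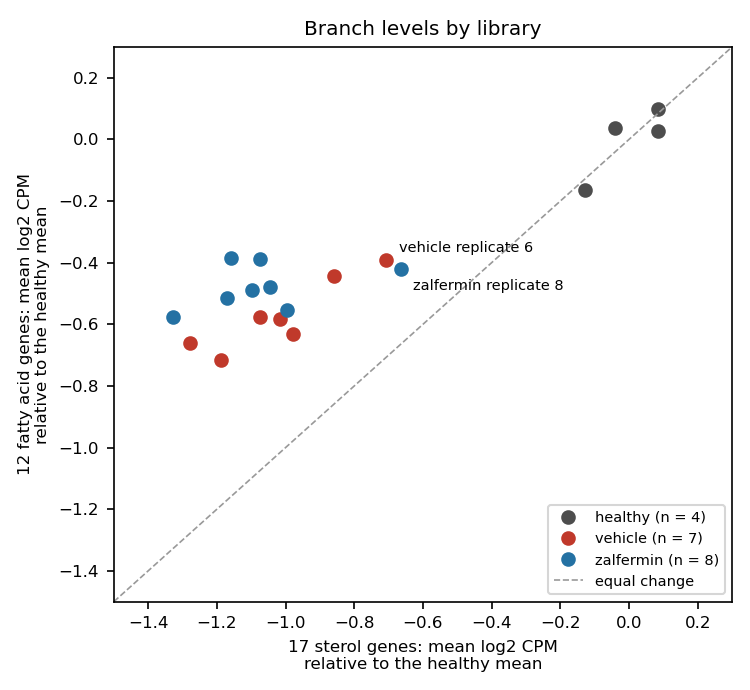
Mean log2 CPM relative to the healthy mean of 17 sterol genes (x axis) and 12 fatty acid genes (y axis), 1 point per library (4 healthy, 7 vehicle, 8 zalfermin); the dashed line marks equal change. All 15 obstructed libraries lie above the line, with vehicle replicate 6 and zalfermin replicate 8 nearest to the healthy points.

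Under zalfermin, no gene of either pathway or of their control passed the test for a difference from vehicle. In zalfermin against vehicle kidneys 0 of 35 genes were called by edgeR, DESeq2 or voom, where edgeR called 1.81% of all tested genes in either direction. At unadjusted p under 0.05 there were 6 genes (17.1%) by edgeR and 5 each by DESeq2 and voom, against 15.5% of all tested genes by edgeR. The groups overlapped for all 35, where 0.605% of all tested genes did not overlap. These shares of the set are near those of all tested genes, so the absence of calls is not a result about the set. The median log2 fold change was 0.01 in the sterol branch, 0.07 in the fatty acid branch and 0.01 over all tested genes. Approximate 95% intervals of the fold changes, not adjusted for the number of genes, reached at the lowest -0.88 (Fdps) and at the highest 0.92 (Scd1). Their widths differed by gene, and each is centered on its own estimate, 0.50 for Scd1. These ends are therefore not a common limit of detection. For Cyp51 the interval ran from -0.32 to 0.32 and for Hmgcs1 from -0.20 to 0.25, well short of the size of their fall with obstruction.

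The 6 genes at unadjusted p under 0.05 went in both directions. Stard4 had the smallest adjusted p, 0.127. Its zalfermin libraries ranged from 69.1 to 108 CPM with a median of 76.7, against a vehicle median of 64.9, and the log2 fold change was 0.30 ± 0.10. Insig2 ranged from 53.0 to 60.4 with a median of 58.7, against 50.7 in vehicle (log2 0.19 ± 0.08, adjusted p = 0.280), and without vehicle replicate 6, its lowest library, the value was 0.10. Elovl6 ranged from 35.2 to 45.3 CPM with a median of 38.9, against 32.6 (log2 0.32 ± 0.11, adjusted p = 0.159). Mvd ranged from 19.7 to 31.4 with a median of 21.4, against 25.9 (log2 -0.42 ± 0.18, adjusted p = 0.275). Me1 had a log2 fold change of -0.25 ± 0.11 (adjusted p = 0.264), farther from the healthy level.

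Fdps, with the second smallest p of the sterol branch, held 1.06 to 2.91 CPM with a median of 2.56 under zalfermin, against a vehicle median of 2.80 (log2 -0.42 ± 0.24, adjusted p = 0.418). Of the sterol genes shown for obstruction, under zalfermin Idi1 held 2.74 to 9.69 CPM (median 4.09), Cyp51 71.3 to 164 (median 92.9), Nsdhl 31.2 to 57.4 (median 38.5) and Hmgcs1 310.0 to 498 (median 384). The highest values of Idi1, Cyp51 and Nsdhl were all in zalfermin replicate 8, the highest library of its group for 13 of 17 sterol genes. In the fatty acid branch Acacb held 15.03 to 27.3 CPM (median 22.03, against 16.3 in vehicle, log2 0.25 ± 0.15, adjusted p = 0.454), Me1 160.5 to 224 (median 187) and Fads2 107 to 134 (median 114). Of the control genes, Insig1 held 13.6 to 37.3 CPM (median 19.1), Scap 89.8 to 102 (median 99.999), Srebf1 56.5 to 81.7 (median 70.1) and Srebf2 101 to 137 (median 117), each overlapping the vehicle range.

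Scd1 had the largest log2 fold change of the set under zalfermin, 0.50 ± 0.21 (adjusted p = 0.252). The 8 zalfermin libraries held 185, 209, 177, 426, 261, 193, 372 and 205 CPM. Replicates 4 and 7 lay far above the rest and replicate 5 next, while the other 5 lay within the vehicle range of 134 to 229. Among the zalfermin libraries the same 3 had the highest adipocyte marker sums: the 10 markers summed to 245 CPM in replicate 4, 272 in replicate 7 and 159 in replicate 5, against 56.8 to 91.1 in the other zalfermin libraries. The vehicle libraries summed to 57.4 to 164 and the healthy ones to 46.2 to 64.1, and Lep, one of the markers, was at 0 in the healthy group. On average Fabp4 alone made up most of the sum. Its mean was 49.5 CPM of a mean sum of 56.2 in healthy, 70.6 of 92.6 in vehicle and 70.7 of 129 in zalfermin libraries. Vehicle replicate 2, the highest of its group with 164 CPM of these markers, held 210 CPM of Scd1, inside the range of its group. A fit without the 4 libraries of highest adipocyte marker sums was chosen after seeing the data. In it the log2 fold change under zalfermin was 0.16 for Scd1, -0.08 for Fasn and 0.02 for Acaca, none called. The part of adipocyte RNA in the Scd1, Fasn and Acaca values was not tested.

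Fasn and Acaca, both also strongly expressed in fat, were highest within the zalfermin group in replicates 7 (178 and 32.2 CPM) and 4 (155 and 28.6 CPM). In the healthy libraries Scd1 was highest, at 604 CPM, in replicate 3, where the adipocyte sum, in that group mostly Fabp4, was lowest.

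**Figure D5:**
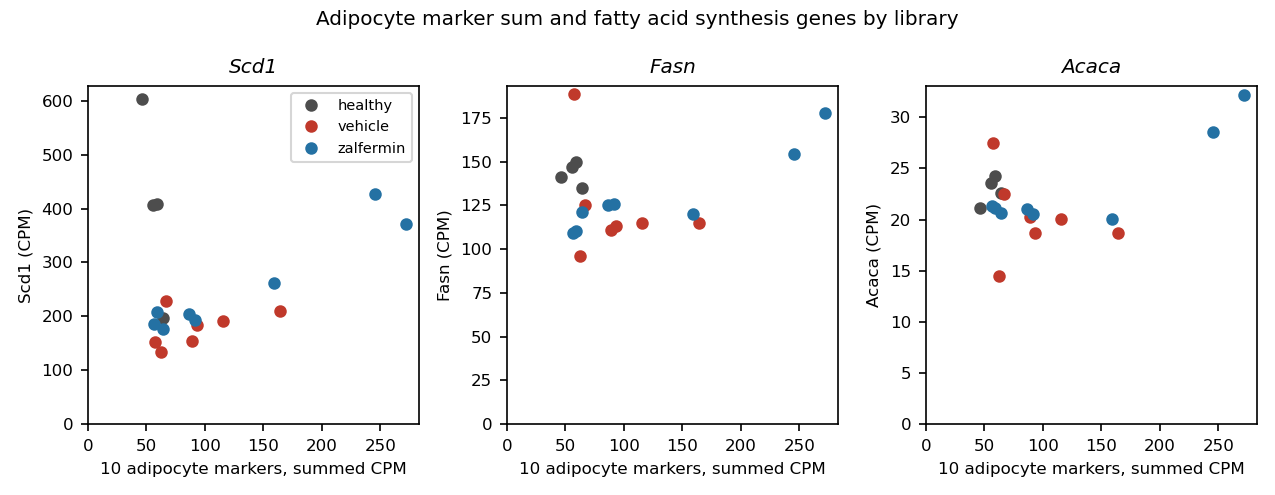
CPM of Scd1, Fasn and Acaca (y axes, from 0) against the summed CPM of 10 adipocyte markers (x axes), 1 point per library (4 healthy, 7 vehicle, 8 zalfermin). Zalfermin replicates 4 and 7, at 245 and 272 CPM of adipocyte markers, have the highest zalfermin values of all 3 genes; vehicle replicate 6 is high in Fasn and Acaca, and healthy replicate 3 in Scd1, at adipocyte sums of 57.4 and 46.2.

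Against healthy kidneys, the zalfermin group showed 26 of 35 genes lower and 0 higher, where 27% of all tested genes were called lower and 37.3% higher. This comparison shares its healthy libraries with the obstruction comparison and its treated libraries with the drug comparison. The sterol branch had 15 of 17 genes lower (median log2 fold change -0.96) and the fatty acid branch 7 of 12 (median -0.31). Without vehicle replicate 6, which enters this comparison only through the shared fit, the counts were 17 and 7 and the medians -1.03 and -0.37. Insig2 and Srebf2 were then called lower as well. For 21 of the 35 genes (60% of them) every zalfermin library was below every healthy one, against 21.7% of all tested genes. Idi1 (-2.53 ± 0.23), Cyp51 (-2.26 ± 0.18), Insig1 (-1.97 ± 0.20), Mvd (-1.96 ± 0.21) and Me1 (-1.68 ± 0.12) were the farthest below the healthy level. Elovl5 was the exception: all 8 zalfermin libraries, at 80.5 to 96.1 CPM, lay above the healthy ones of 78.7, 72.2, 69.2 and 80.4 (log2 0.22 ± 0.11), although it was not called (adjusted p = 0.0774). Scd1, at -0.67 ± 0.24 (adjusted p = 0.0192), lost its call without healthy replicate 3 (-0.41, adjusted p = 0.167, with a range of 0.000378 to 0.167 over the settings).

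Genes beside these pathways were counted in 7 further lists, to be read against the 28.6% of all tested genes called lower and 36.2% called higher with obstruction. Of 10 other genes of SREBP processing and of sterol-dependent degradation, 5 (50%, against 28.6% of all tested genes) fell with obstruction and 0 rose. Erlin2, an endoplasmic reticulum scaffold gene, had the smallest p of this list under zalfermin (log2 0.17, adjusted p = 0.159).

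Of 10 genes that use isoprenoids for other products, 6 (60%, against 28.6% of all tested genes) fell and 1 (10%, against 36.2%) rose. Pdss2 and Pdss1, which make the tail of coenzyme Q, fell by 1.16 and 1.37 (adjusted p = 5.07e-09 and 1.46e-08). Rabggta, which attaches isoprenoids to Rab proteins, had the smallest p under zalfermin (log2 -0.16, adjusted p = 0.454).

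Genes of sterol export and LXR, the receptor that responds to excess sterol, were counted next. With obstruction 6 of 11 rose (54.5%, against 36.2% of all tested genes) and 3 fell (27.3%, near the 28.6% of all tested genes). The exporter gene Abca1 rose by 2.72, from 27.7 ± 11.5 to 183 ± 39.9 CPM (SD, n = 4 and 7; adjusted p = 1.78e-10), and Abcg1 by 1.66 (adjusted p = 1.49e-09). Both are also abundant in macrophages, whose 10 markers summed to 159 to 196 CPM in healthy and 1131 to 1499 in vehicle libraries, and the part of these cells in the rise was not tested. Mylip, which encodes a ligase that degrades lipoprotein receptors, had a log2 fold change of 0.28 under zalfermin (adjusted p = 0.103).

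Of 8 genes that supply acetyl-CoA and NADPH, 5 fell (62.5%, against 28.6% of all tested genes) and 3 rose (37.5%, near the 36.2% of all tested genes). Acat2, which makes the acetoacetyl-CoA that Hmgcs1 uses, fell by 1.38 (adjusted p = 7.03e-11), and Acss2, which activates acetate, fell by 1.60 (adjusted p = 1.01e-10). Idh1, a further source of NADPH, fell by 1.14 with obstruction (adjusted p = 8.16e-08) and had a log2 fold change of 0.34 under zalfermin (adjusted p = 0.131).

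Of 12 tested genes of elongation and desaturation outside the set, 9 fell (75%, against 28.6% of all tested genes) and 1 rose (8.33%, against 36.2%). Cyb5a, the electron donor of the desaturases, fell by 1.84 (adjusted p = 2.91e-11) and Fads6 by 1.92 (adjusted p = 7.01e-09). Elovl2, an elongase of polyunsaturated chains, fell by 0.51 (adjusted p = 4.75e-05) and had a value of 0.25 under zalfermin (adjusted p = 0.111).

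In glycerolipid synthesis 8 of 13 genes fell (61.5%, against 28.6% of all tested genes) and 1 rose (7.69%, against 36.2%). Among those that fell were Agpat3 (-1.11, adjusted p = 4.96e-09) and Dgat2 (-1.31, adjusted p = 1.03e-08), which make phosphatidic acid and triglyceride. Gpat3, which starts that route, was the single gene of these 7 lists called under zalfermin, where 1.81% of all tested genes were called. A single call over lists of this size is near that share, so it is not a result about the lists. The vehicle and zalfermin libraries of Gpat3 overlapped. This gene fell by 0.83 with obstruction and rose by 0.63 under zalfermin (adjusted p = 0.0168). Its means were 11.6 ± 1.06 CPM in the 4 healthy, 6.51 ± 1.58 in the 7 vehicle and 10.1 ± 1.58 in the 8 zalfermin libraries (SD).

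Of 7 regulators of fatty acid synthesis 3 rose (42.9%) and 2 fell (28.6%), shares near the 36.2% and 28.6% of all tested genes. Mlxipl, which encodes the sugar-responsive factor ChREBP, fell by 1.29 (adjusted p = 8.30e-09), whereas its relative Mlxip rose by 0.85 (adjusted p = 6.00e-07). Thrsp, a lipogenic gene abundant in fat, had a log2 fold change of 1.03 under zalfermin at low levels of 1.77 ± 1.39 and 3.62 ± 1.75 CPM (SD, n = 7 and 8; adjusted p = 0.132).

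Per kilobase of annotated exon, the healthy kidneys carried most RNA of Hmgcs1 (192 CPM per kb), Me1 (157), Cyp51 (112), Fads2 (84.0) and Scd1 (82.5), and least of Fdps (0.833) and Acaca (1.34). After obstruction the same measure was 84.2 for Hmgcs1, 58.3 for Me1, 23.4 for Cyp51, 38.3 for Fads2 and 36.6 for Scd1, so that Acly, at 42.5, ranked above Fads2, Scd1 and Cyp51. These levels are of union exon models, which for genes with many isoforms exceed any single transcript.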

How the data were processed

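The values are raw read counts per gene, deposited by the authors in a matrix of 19 libraries with no normalization. RNA was taken up with NucleoSpin kits and made into libraries with a directional kit, per the labels' protocols, and reads were aligned with STAR 2.7.0f, per the submitters' processing notes. The sources used here do not name the counting program or its strand setting. One edgeR 4.0.16 quasi-likelihood model (R 4.3.3) was fitted to all libraries with TMM factors and filterByExpr (minimum count 10), and tested two-sided with Benjamini-Hochberg adjustment over 16026 genes at 0.05. The 35 genes and the other lists were chosen with earlier results of these data known. Levels are shown for the 4 largest called changes with obstruction and the 2 smallest p under zalfermin in each branch, for all control genes and for Stard4, with Hmgcs1, Fasn and others added after their values were seen. Of each further list the 2 smallest p with obstruction and the smallest under zalfermin are named; some genes that this takes are not reported here. Alternatives were RLE and upper-quartile scaling, other filters, DESeq2 1.42.0, voom (limma 3.58.1), fits of 2 groups, and each library left out. The edgeR test was also run on simulated data in which few genes changed. With obstruction 10387 of 16026 genes were called, so that run does not cover this comparison. Gene models are GENCODE's for GRCm38, and promoters are RefSeq's.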

Additional observations from a re-analysis of the deposited data

Results flagged for a closer look

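Levels were checked for 35 genes and 2 branches in 3 groups. Of these 111 combinations, 23, all of single genes, had a library far from the others by Dixon's criterion, where chance gives about 1 in 20. Most lay in vehicle replicate 6, the library with the lowest mitochondrial share. It was the highest vehicle library for Pmvk (29.7 CPM), Mvd (58.2), Ebp (64.9), Dhcr7 (27.0), Acly (289), Acacb (30.1), Fasn (189), Elovl1 (131), Srebf1 (109), Srebf2 (169) and Scap (140.04), and the lowest for Elovl6 (21.2) and Insig2 (34.7). Zalfermin replicate 8 was the highest of its group for Idi1 (9.69 CPM), Nsdhl (57.4), Hsd17b7 (34.1), Dhcr7 (24.7), Insig1 (37.3) and Stard4 (108). The remaining values were Hsd17b7 in vehicle replicate 4 (38.0 CPM), Tm7sf2 in healthy replicate 3 (21.2), Scd2 in healthy replicate 1 (234) and, below its group, Fads1 in healthy replicate 4 (128).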

How the results depend on the processing

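The sterol branch kept its count of fallen genes between 14 and 16 of 17 with obstruction and between 14 and 17 against healthy under zalfermin, over 27 alternative settings; the fatty acid counts ranged from 5 to 9 and from 6 to 7 of 12. One of these settings, which leaves out the 4 libraries with most adipocyte marker RNA, was chosen after seeing the data. With obstruction, the fatty acid median of -0.25 became -0.41 without vehicle replicate 6 (leave-one-out range -0.41 to -0.22). For zalfermin against healthy, the fatty acid median of -0.31 became -0.40 with RLE scaling and with DESeq2. In that comparison upper-quartile scaling and a fit of the 2 groups each called 1 fatty acid gene higher, Elovl5, and leaving out single libraries called 0 to 1, the 1 being Elovl6 without healthy replicate 1. No setting called any of the 35 genes for zalfermin against vehicle. RLE scaling moved the median of all genes with obstruction from 0.09 to 0.01 and upper-quartile scaling to 0.14. No paired analysis was possible because the labels number no replicates. Genes at a few CPM, such as Fdps, Idi1 and Thrsp, are limited by depth.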
